A study of Mus musculus with 2 samples.

Results

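Resident-type macrophages were 143 of the 4721 cells that passed the filters in the dermal library (3.03%, exact Clopper-Pearson 95% interval 2.56 to 3.56%). They were selected on measured values. A cell needed 200 to 5000 detected genes, at most 10% of its molecule barcodes (UMIs, 1 for each RNA molecule captured) from mitochondrial genes, at least 20 UMIs of C1qa, C1qb and C1qc together per 10000 UMIs, and at least 5 UMIs of Cd163, Folr2, Lyve1 and Cbr2 together per 10000. A cell with over 1 UMI of Cd3d, Cd3e and Cd3g, or with 3 or more UMIs of Mki67 and Top2a, was left out. Of the cells within the limits before these, the first took out 6 and the second 14, each counted without regard to the other. The study applied imiquimod, an agonist of Toll-like receptors that gives psoriasis-like inflammation, to the ear of wild type C57BL/6 mice on 5 consecutive days; the labels give an age of 10 weeks, and the study's methods give a younger age and male mice. Dermis and epidermis each gave 1 library of 10x Genomics 3′ single-cell RNA sequencing, and no untreated skin is in the series. By the study's methods the dermal cells were sorted as live CD45+ cells, whereas the labels mention only the removal of dead cells. How many mice were pooled in a library is not given in the sources used here.

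The dermal library held 41258087 UMIs over 5376 barcodes. The 143 resident-type macrophages carried 1473268 of them, with 569 UMIs in the poorest cell, 9752 in the median cell and 29857 in the richest. Cells of 1 library are not replicates, so no test was run; each fold and share below stands with an exact 95% interval that covers counting error only, not the spread between mice. The nearest comparison group was the 640 other C1q-high macrophages, which met the same limits except that their Cd163, Folr2, Lyve1 and Cbr2 sum was under 5 per 10000. The 228 Ly6c2 monocytes (Ly6c2 at least 10 per 10000, at least 1 Csf1r UMI) and the 50 Cd209a or Flt3 dendritic cells (these genes together at least 5 per 10000) both had a C1q sum under 20 per 10000. Median depths of the 3 groups were 8269.5, 9982.5 and 10940.5 UMIs. Mitochondrial genes held 3.51% of UMIs in the median resident-type macrophage, 2.61% in the median other C1q-high macrophage and 1.98% in the median Ly6c2 monocyte.

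Macrophages that live in the dermis before an inflammation starts sit along vessels and nerves and between collagen fibres, where they take up debris, proteins and iron-bearing molecules. C1qa, C1qb and C1qc encode the chains of the complement component C1q, which tissue macrophages make themselves. CD163 takes up haemoglobin bound to haptoglobin, FOLR2 binds folate, LYVE1 binds hyaluronan and CBR2 is a carbonyl reductase. In mouse tissues these genes are used to tell long-lived perivascular macrophages from monocytes that have recently entered and from macrophages that such monocytes become.

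Selection by 4 genes drew a group in which the genes did not all occur together. Folr2 was found in 123 of the 143 cells, Cbr2 in 113, Cd163 in 84 and Lyve1 in 39. All 4 genes had a UMI in 24 cells, 3 genes in 53 cells, 2 genes in 38 cells and a single gene in 28 cells. In 12 cells the selection rested on a single UMI, and in 122 on over 2. The sum of the 4 genes ran from 5.11 through a median of 9.35 to 32.7 UMIs per 10000. The cells just inside the limit had 5.11, 5.17 and 5.22 UMIs per 10000, and those just outside had 4.97, 4.94 and 4.88, so the limit cut through a continuous range. For the C1q sum the cells just inside had 20.3, 20.9 and 21.2 per 10000, and the cells that met every other limit and lay just outside had 19.6, 17.7 and 15.8. The sum is plotted against the C1q sum for all 783 C1q-high cells.

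**Figure D1:**
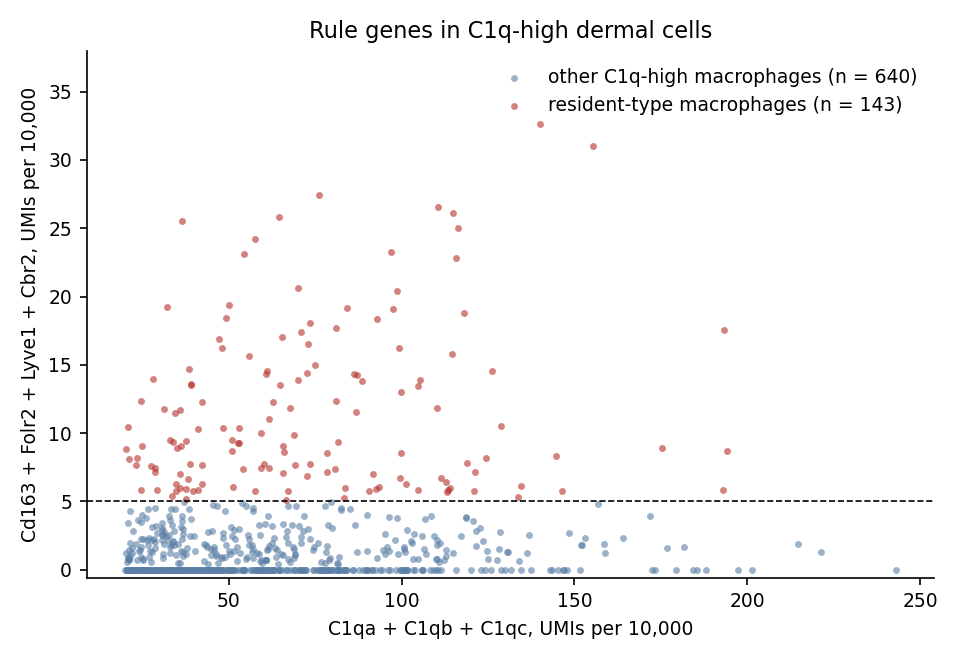
Each point is 1 of 783 C1q-high dermal cells; the x axis is the summed UMIs of C1qa, C1qb and C1qc per 10,000 UMIs of the cell, the y axis that of Cd163, Folr2, Lyve1 and Cbr2, and the dashed line is the limit of 5 per 10,000. The 143 resident-type macrophages reach 32.7 on the y axis, no gap separates them from the 640 others at the line, and 368 of the others lie at 0.

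When each of the 4 genes was taken out of the sum in turn, the cells that the other genes chose still carried more of the gene left out. Cd163 stood at 260 UMIs per 1000000 (CPM, counts scaled to a group's summed UMIs) in 115 cells so chosen and at 37.9 CPM in the other 668 C1q-high cells, a 6.87-fold difference (5.80 to 8.15). Folr2 stood at 351 against 69.2 CPM (5.08-fold, 4.41 to 5.85), and Cbr2 at 500 against 75.1 CPM (6.65-fold, 5.85 to 7.56). Lyve1 was the rarest, with 83 UMIs in 140 chosen cells and 22 in 643 others (16.4-fold, 10.1 to 27.5). These 4 genes chose the cells, so the values only describe the choice. Among 312 cells with at least 3 Cd3 UMIs, which should lack these genes, 5.77% had a Cd163 UMI, 7.69% a Folr2 UMI, 6.09% a Cbr2 UMI and 2.24% a Lyve1 UMI, at a median of 8738.5 UMIs; whether free RNA or doublets gave these UMIs was not tested. After every cell was thinned to 2000 UMIs, which dropped 13 shallower resident-type macrophages and 19 of the cells with Cd3, Folr2 was found in 52.3% of the resident-type macrophages and 1.71% of the cells with Cd3, and Lyve1 in 6.92% and 0.341%.

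The label was set beside macrophage genes that the selection did not use. The lists of such genes were written with earlier results of these data known, so they are not an independent check. General macrophage genes were present at the level of the other C1q-high macrophages: Adgre1, which encodes F4/80, stood at 223 against 221 CPM and Csf1r, the receptor for macrophage colony-stimulating factor, at 249 against 230 CPM. Ly6c2 monocytes had 62.8 CPM of Adgre1. Of 32 further genes known from resident or perivascular macrophages, 28 had at least 50 UMIs over both groups, and 22 of these were at least 2-fold higher in CPM in the resident-type macrophages while none was 2-fold lower. After every cell was thinned to 2000 UMIs, 17 of the 28 still had 50 UMIs and 10 of these were at least 2-fold higher, beside 93 of all 2753 genes then compared (3.38%). The median log2 ratio of the 28 was 1.43, beside 0.08 over all 7271 genes compared. Across all of those genes 277 were at least 2-fold higher (3.81%) and 291 at least 2-fold lower (4%). Not every resident macrophage gene was there. Vsig4 had 0 UMIs in resident-type and in other C1q-high macrophages, which allows up to 3 UMIs in each, Cd5l had 0 and 8, and Timd4, often used for long-lived macrophages, had 1 and 6.

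The 3 highest ratios among the genes ranked were those of Cd209b, Cd209f and Cd209g, lectins of 1 family. All 3 reached the minimum of 50 UMIs only through the resident-type macrophages, so their rank is a description and no support for the label. CD209 proteins are C-type lectins that bind sugars on microbes and on the body's own glycoproteins, and the mouse genes lie together on chromosome 8: Cd209b, Cd209d, Cd209f and Cd209g span 265.9 kb in the GENCODE M21 annotation of GRCm38. Cd209b, known as SIGNR1, had 67 UMIs in resident-type and 5 in other C1q-high macrophages, 45.5 against 0.795 CPM (57.2-fold, 23.3 to 182). Cd209f had 127 against 29 UMIs (18.7-fold, 12.4 to 29.0), Cd209g 59 against 23 (10.9-fold, 6.66 to 18.6) and Cd209d 131 against 63 (8.87-fold, 6.52 to 12.2). Without its richest cell in each group, a setting chosen after seeing the data, the log2 ratio of Cd209g was 4.80 in place of 3.43. These were genes of few cells. Of the 143 resident-type macrophages, 29 had a Cd209d UMI, 18 a Cd209b UMI, 17 a Cd209f UMI and 15 a Cd209g UMI, and 1 cell held 30.7% of the Cd209f UMIs. At least 1 of the 4 genes was found in 39 of the 143 cells (27.3%, 20.2 to 35.3%) and in 50 of the 640 others (7.81%, 5.85 to 10.2%), and all 4 were found in 7 cells. Of the UMIs that the 4721 filtered dermal cells held, resident-type macrophages had 62.6% for Cd209b (52.7 to 71.8%), 59.9% for Cd209f (53.0 to 66.6%) and 52.2% for Cd209g (42.6 to 61.7%), but 12.4% for Cd209d. Cd209d was at 555 CPM in the Cd209a or Flt3 dendritic cells, above the 88.9 CPM of the resident-type macrophages.

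The sequences just before the start sites of these 4 genes are shown because the 3 genes with the highest ratios lie in 1 cluster. Each is the 200 bases that end at the base before the start of transcription, taken from RefSeq for GRCm38.p6 and read 5′ to 3′ on the strand of the gene. Capitals mark TGANTCA, the motif of AP-1 factors, and TATAAA, the TATA box, wherever they were found on either strand.
Cd209f, chr8:4105765-4105964, minus strand: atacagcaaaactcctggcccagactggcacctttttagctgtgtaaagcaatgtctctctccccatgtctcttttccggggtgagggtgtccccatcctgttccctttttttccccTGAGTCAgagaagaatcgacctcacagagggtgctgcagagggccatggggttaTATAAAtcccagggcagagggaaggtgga
Cd209g, chr8:4134536-4134735, plus strand: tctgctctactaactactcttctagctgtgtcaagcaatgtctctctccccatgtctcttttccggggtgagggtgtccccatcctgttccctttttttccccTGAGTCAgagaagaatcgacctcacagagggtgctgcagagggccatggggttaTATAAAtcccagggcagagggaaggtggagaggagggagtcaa
Cd209b, chr8:3926842-3927041, minus strand: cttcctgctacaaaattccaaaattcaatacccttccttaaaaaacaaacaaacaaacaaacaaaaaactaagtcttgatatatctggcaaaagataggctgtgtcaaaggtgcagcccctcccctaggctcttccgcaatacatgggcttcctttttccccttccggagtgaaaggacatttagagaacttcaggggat
Cd209d, chr8:3878500-3878699, minus strand: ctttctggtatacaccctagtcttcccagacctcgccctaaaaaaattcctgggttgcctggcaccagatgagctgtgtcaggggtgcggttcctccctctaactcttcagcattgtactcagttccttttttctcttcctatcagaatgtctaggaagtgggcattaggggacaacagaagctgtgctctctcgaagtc
In the 300-base windows from 250 bases before to 50 bases after the start, Cd209f and Cd209g shared an unbroken run of 180 bases and 86.7% of aligned positions. No other pair among the 4 shared a run of more than 12 bases. TGANTCA began 83 bases before the start of Cd209f and 97 before that of Cd209g, and TATAAA 29 and 43 bases before; neither was found in the windows of Cd209b and Cd209d. Of 32851 mouse windows of that length, 7.81% held TGANTCA and 13.6% held TATAAA. A match of letters is a description and not evidence that a factor binds. The annotated transcripts of Cd209f and Cd209g also share a run of 416 bases, so reads of the 2 genes may have been split or lost in counting, and their separate counts are uncertain.

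Beyond the Cd209 genes, the 12 highest ratios over the other C1q-high macrophages held receptors, channels, enzymes and a chemokine. Marco, a scavenger receptor for bacteria and particles, had 169 UMIs in 44 of the 143 cells and 101 UMIs in 30 of the 640 others, 115 against 16.1 CPM (7.14-fold, 5.55 to 9.23). Aqp1, a water channel, stood at 109 against 10.7 CPM (10.3-fold, 7.67 to 13.8). Ednrb, the endothelin receptor B, stood at 82.1 against 10.2 CPM (8.07-fold, 5.91 to 11.1). Pmp22, a membrane protein best known from myelin, was found in 83 cells at 267 against 31.0 CPM (8.62-fold, 7.24 to 10.3). Npl, which breaks down sialic acid, was found in 89 cells at 269 against 36.0 CPM (7.50-fold, 6.35 to 8.86). Aldh7a1, an aldehyde dehydrogenase, and Cpne8, a membrane-binding protein of the copine family, had ratios of 6.32 (4.39 to 9.16) and 6.21 (3.50 to 11.2). Marco and Aqp1 had a median of 0 UMIs per cell in both groups, so these ratios came from a minority of cells, while Npl and Pmp22 had medians of 1.5 and 1.07 UMIs per 10000 in the resident-type macrophages and 0 in the others.

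**Figure D2:**
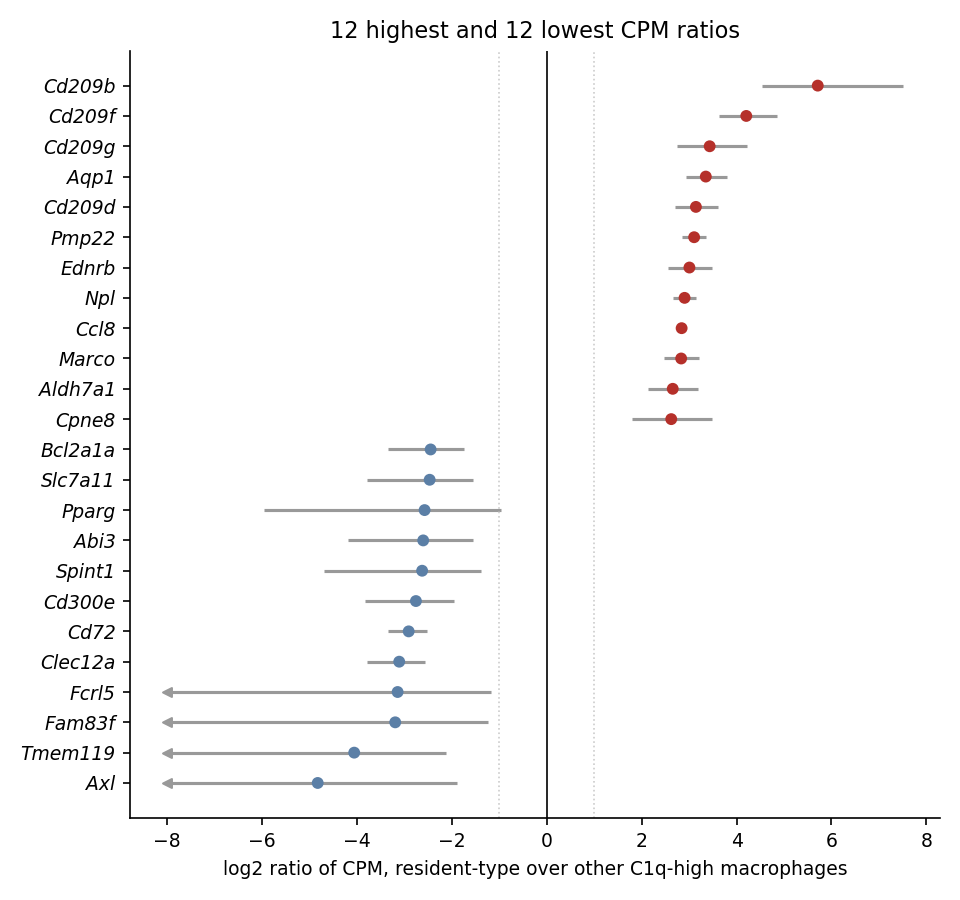
Points are log2 ratios of CPM, 143 resident-type over 640 other C1q-high macrophages, for the 12 highest and 12 lowest genes with at least 50 UMIs; lines are exact 95% intervals for counting error, arrows mark intervals that run past the axis, and dotted lines mark 2-fold. Cd209b is highest at 5.71; Axl, with 0 UMIs in the resident-type macrophages, is drawn at -4.83, a value set by the pseudocount of 0.5 UMI, and was at least 4.69-fold lower with 3 UMIs taken as the floor.

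Chemokines draw other leukocytes into tissue, and Ccl8 is a ligand of the receptor CCR8 on T cells. Ccl8 had 9101 UMIs in the resident-type macrophages and 5414 in the 640 others, 6177 against 861 CPM (7.17-fold, 6.93 to 7.42). Ccl8 was found in 127 of the 143 cells, with a median of 17.6 and a highest value of 462 UMIs per 10000, while the median of the others was 1.02 and their highest value 489, so the ranges overlapped. Ccl8 in Ly6c2 monocytes, dendritic cells and the cells with Cd3 was at 87.6, 90 and 139 CPM. The resident-type macrophages held 45.6% of the Ccl8 UMIs of the filtered dermal cells (44.9 to 46.3%), although they were 3.03% of these cells. Ccl12, which lies beside Ccl8 and draws monocytes, stood at 965 against 343 CPM (2.81-fold, 2.63 to 3.01), and Pf4, the platelet factor that resident macrophages also make, at 8867 against 3996 CPM (2.22-fold, 2.17 to 2.27). Ccl9 and Ccl6 were 2.87-fold (2.71 to 3.04) and 2.64-fold (2.48 to 2.81) higher, but Ly6c2 monocytes had 924 and 1230 CPM of them, near the 1354 and 1118 CPM of the resident-type macrophages. Ccl2 and Ccl7, both of which draw monocytes through CCR2, had ratios of 1.24 (1.15 to 1.33) and 1.72 (1.63 to 1.83). Of 21 chemokines compared, 6 were at least 2-fold higher and 2 at least 2-fold lower, beside 3.81% and 4% of all 7271 genes. The median log2 ratio of the 21 was 0.29. The lower ones were Cxcl16 at 0.451 (0.394 to 0.513) and Cxcl10, an interferon-induced T cell chemokine, at 0.390 (0.240 to 0.603). Among the 6, Ccl17 rested on 1 cell, which held 83.3% of its UMIs. Other genes with a large part of their dermal UMIs in these cells were Marco (44.5%, 39.4 to 49.6%), Npl (35.2%, 32.4 to 38%), the GTPase regulator Stard8 (29.9%, 26 to 34.1%), Enpp1 (29.2%, 24.8 to 33.9%), the glycosyltransferase B3galnt1 (29.2%, 21 to 38.5%), Ccdc106 (28.4%, 19.9 to 38.2%), Ednrb (28%, 23.8 to 32.5%) and the orphan receptor Gprc5b (25.5%, 17.6 to 34.6%).

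Scavenger and lectin receptors bind lipoproteins, glycans and microbes. Of 22 compared, 10 were at least 2-fold higher in the resident-type macrophages, the 4 Cd209 genes and Marco among them. Another 2 were at least 2-fold lower. After thinning to 2000 UMIs, 5 of the 15 still compared were higher, beside 3.38% of all 2753 genes. Mrc1, the mannose receptor, stood at 624 against 269 CPM (2.32-fold, 2.14 to 2.51) and was found in 128 cells. Stab1, which takes up modified lipoproteins, stood at 116 against 33.6 CPM (3.46-fold, 2.81 to 4.25), Clec10a, a lectin for galactose, at 236 against 71.9 CPM (3.28-fold, 2.84 to 3.78) and Cd36, a receptor for fatty acids and oxidised lipoproteins, at 135 against 37.4 CPM (3.61-fold, 2.98 to 4.38). Other lectins went the other way or were near even. Clec12a, an inhibitory lectin, had 24 UMIs against 901 and was 8.80 times lower (5.88 to 13.8). Clec4a2 stood at 657 against 1117 CPM (0.588, 0.549 to 0.629) and Clec4n, also called dectin-2, at 258 against 467 CPM (0.553, 0.495 to 0.615).

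Genes for the uptake of dead cells were split. Gas6, a protein that bridges dying cells to receptors of phagocytes, stood at 260 against 46.1 CPM (5.64-fold, 4.83 to 6.59), and Pros1, a second such bridge, at 44.1 against 17.7 CPM (2.50-fold, 1.81 to 3.42). Of the receptors for these proteins, Mertk had 17 against 39 UMIs (1.86-fold, 0.987 to 3.37) and Axl had 0 against 60 UMIs, at least 4.69-fold lower with 3 UMIs taken as the floor. Of 17 such genes, 4 were at least 2-fold higher and 5 at least 2-fold lower, beside 3.81% and 4% of all 7271 genes. Their median log2 ratio was -0.13. Axl was at 141 CPM in 250 collagen-high cells, and 43 of the 640 other C1q-high macrophages carried its 60 UMIs.

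Hmox1, the enzyme that splits haem, stood at 1687 against 548 CPM (3.08-fold, 2.92 to 3.24) and was found in 125 of 143 cells. Tfrc, the transferrin receptor, was 3.09-fold higher (2.29 to 4.17), and Ncoa4, which delivers ferritin to the lysosome, 2.53-fold higher (1.94 to 3.27). Ftl1 and Fth1, the ferritin chains, had ratios of 0.971 (0.955 to 0.986) and 0.838 (0.826 to 0.851). Slc40a1, the iron exporter ferroportin, had 18 against 25 UMIs, under the minimum for comparison. Of 19 iron and haem genes, 5 were at least 2-fold higher, beside 3.81% of all 7271 genes, and none 2-fold lower. Their median log2 ratio was 0.68. After thinning to 2000 UMIs, 2 of the 11 still compared were higher, beside 3.38% of all 2753 genes. At a minimum of 100 UMIs, 3 of 14 were higher, beside 2.80% of all 5245 genes.

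Among secreted factors, Igf1, a growth factor, stood at 202 against 41.2 CPM (4.89-fold, 4.13 to 5.80), F13a1, the clotting factor chain that cross-links matrix proteins, at 615 against 117 CPM (5.25-fold, 4.75 to 5.79), and Timp2, an inhibitor of matrix metalloproteinases, at 759 against 248 CPM (3.06-fold, 2.83 to 3.31). F13a1 was found in 118 of the 143 cells. Selenop, which carries selenium, stood at 2148 against 957 CPM (2.25-fold, 2.15 to 2.34). Of 7 matrix metalloproteinases among the growth factors and matrix enzymes compared, Mmp8, Mmp12, Mmp13 and Mmp14 were at least 2-fold lower, and Mmp2, Mmp9 and Mmp19 had log2 ratios of -0.47, -0.53 and -0.63. Mmp14, a protease of the cell surface, stood at 21.7 against 87.5 CPM (0.248, 0.168 to 0.355), and Mmp12 and Mmp13 had 4 against 68 and 2 against 53 UMIs. Of 20 growth factors and matrix enzymes, 4 were at least 2-fold higher and 5 at least 2-fold lower, beside 3.81% and 4% of all 7271 genes. Of 12 complement genes outside C1q that were compared, 3 were at least 2-fold higher, beside 3.81% of all 7271 genes. None was 2-fold lower, and the median log2 ratio was -0.0049. Cd55, which restrains complement on host cells, was 4.44-fold higher (2.94 to 6.71), and C3, the central component of the cascade, was at 17.7 against 24.5 CPM.

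MHC class II molecules present peptides to helper T cells, and their genes had the lowest median ratio of any list with at least 6 compared genes. H2-Aa stood at 511 against 2041 CPM (0.25, 0.232 to 0.269), H2-Eb1 at 364 against 1408 CPM (0.258, 0.236 to 0.282), H2-Ab1 at 529 against 1748 CPM (0.303, 0.281 to 0.326) and Cd74, the invariant chain, at 1329 against 4501 CPM (0.295, 0.282 to 0.309). Of 11 genes for class II presentation compared, 7 were at least 2-fold lower, beside 4% of all 7271 genes, and none 2-fold higher. Their median log2 ratio was -1.33. The co-stimulatory genes Cd40 and Cd86 had ratios of 1.02 (0.651 to 1.55) and 0.849 (0.583 to 1.21). The sum of H2-Aa, H2-Ab1, H2-Eb1 and Cd74 had a median of 11.7 UMIs per 10000 in resident-type macrophages, 30.1 in other C1q-high macrophages, 11.1 in Ly6c2 monocytes and 569 in the dendritic cells. In the cells with Cd3 and in 250 collagen-high cells, which should lack these genes, the medians were 9.67 and 7.96, close to that of the resident-type macrophages. A sum of at least 100 per 10000 was found in 13 of 143 resident-type macrophages (9.09%, 4.93 to 15.0%) and in 195 of 640 others (30.5%, 26.9 to 34.2%).

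**Figure D3:**
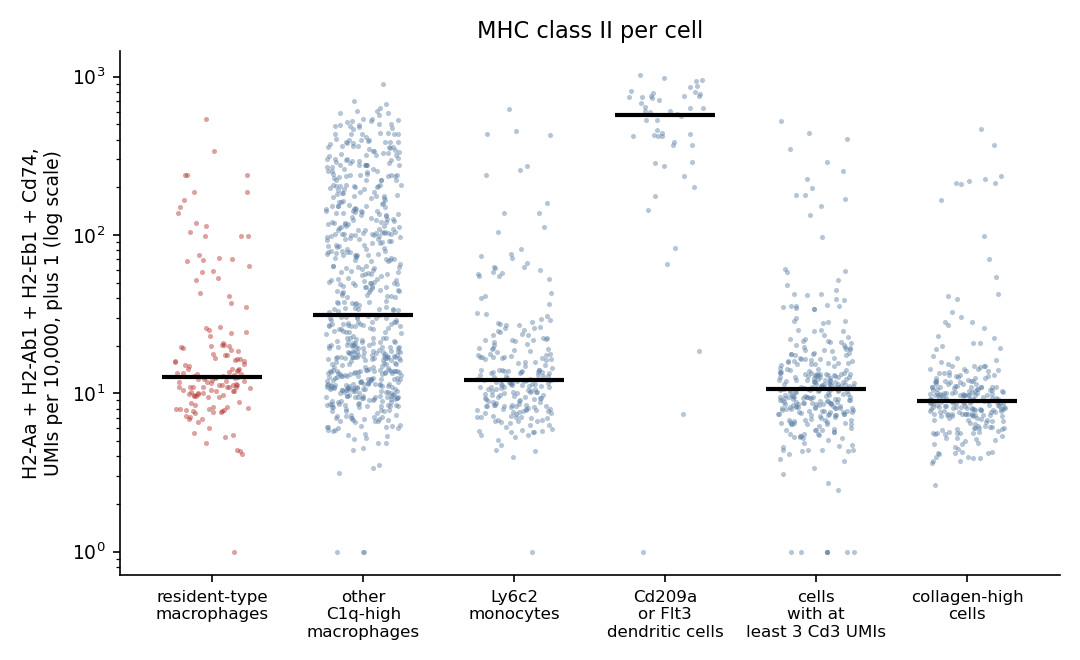
Each point is a cell; the y axis is the summed UMIs of H2-Aa, H2-Ab1, H2-Eb1 and Cd74 per 10,000, plus 1, on a log scale, and bars are medians. The resident-type macrophages (median 11.7 before 1 was added) lie near the Ly6c2 monocytes (11.1) and the cells with Cd3 (9.67), while the other C1q-high macrophages spread up to 893.

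Of 23 monocyte genes in the same comparison, 12 were at least 2-fold lower in the resident-type macrophages, beside 4% of all 7271 genes. None was 2-fold higher, and the median log2 ratio was -1.05. With Cbr2 left out of the sum that chose the cells, 7 were lower. The share of all genes lower at that setting is not given here. Ccr2, the receptor that brings monocytes into tissue, stood at 74.7 against 155 CPM (0.481, 0.391 to 0.586), but at 223 CPM in the cells with Cd3 and 431 CPM in Ly6c2 monocytes. Ly6c2 itself stood at 42.8 against 93.7 CPM (0.456, 0.346 to 0.593), Chil3, a chitinase-like protein, at 114 against 293 CPM (0.389, 0.330 to 0.456) and Ms4a4c at 40 against 128 CPM (0.313, 0.236 to 0.408). Lyz2, the lysozyme of the myeloid lineage, was near even at 6312 against 6729 CPM. Cx3cr1, the fractalkine receptor, had 48 UMIs in 4 of the 143 cells, and 1 of the 4 held 38 of them.

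The genes with the lowest ratios included surface receptors and regulators. Tmem119, a membrane protein best known from microglia, had 1 UMI against 106 in 73 cells, 24.8 times lower (4.36 to 990). Cd72, an inhibitory receptor, had 53 against 1714 UMIs and was 7.58 times lower (5.77 to 10.2); its 36.0 CPM lay below the 71.5 CPM of the cells with Cd3. Cd300e, a receptor of monocytes, had 11 against 331 UMIs (7.05 times lower, 3.89 to 14.3). With every cell thinned to 2000 UMIs the log2 ratios of Cd72 and Cd300e were -2.06 and -1.77, a smaller difference for both. Pparg, a nuclear receptor for fatty acids, had 2 against 63 UMIs (7.38 times lower, 1.96 to 62.3), but as a mean over cells its log2 ratio was -0.62, under 2-fold. Spint1, a protease inhibitor, Abi3, a regulator of actin, and Slc7a11, the cystine transporter, were 6.91 (2.63 to 25.8), 6.56 (2.95 to 18.1) and 5.86 times lower (2.92 to 13.8). Fam83f and Fcrl5 had 1 UMI each in the resident-type macrophages against 58 and 56. Bcl2a1a, which restrains cell death, had 15 against 360 UMIs, and its count is uncertain because near-identical copies of this gene exist.

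Of 28 macrophage transcription factors, Mef2c was at least 2-fold higher (63.8 against 26.1 CPM, 2.45-fold, 1.88 to 3.17) and 5 were at least 2-fold lower, namely Id3, Nr1h3, Runx3, Spic and Pparg. Maf, which maintains the macrophage state, had a ratio of 1.70 (1.54 to 1.88), and Spi1, the lineage factor PU.1, 0.847 (0.779 to 0.920). Of 15 inflammatory mediators, 4 were at least 2-fold lower, beside 4% of all genes, and none 2-fold higher, with a median log2 ratio of -0.55. With at most 5% mitochondrial UMIs 7 of 15 were lower, and the share of all genes lower at that limit is not given here. With a pseudocount of 5 UMIs 2 were lower, when 119 in place of 291 of all 7271 genes were lower. The 20 genes that respond to tissue dissociation had a median log2 ratio of -0.53, and their part in the result was not tested. Il1b stood at 297 against 530 CPM (0.561, 0.507 to 0.620), beside 317 CPM in the cells with Cd3 and 1974 CPM in Ly6c2 monocytes. Ptgs2, the enzyme of prostaglandin synthesis, stood at 10.2 against 31.0 CPM (0.328, 0.180 to 0.555), and Il1rn, the interleukin-1 receptor antagonist, at 40 against 98.8 CPM (0.405, 0.305 to 0.530). Tnf, at 38.7 against 63.8 CPM (0.607, 0.451 to 0.802), and Il10, at 25.8 against 29.3 CPM (0.881, 0.604 to 1.26), did not reach 2-fold.

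Imiquimod acts through Toll-like receptor 7 in mice. Tlr7 had 27 against 100 UMIs (1.15-fold, 0.724 to 1.78), and of 19 Toll-like receptor and adaptor genes none was 2-fold higher and 1, Ticam1, was 2-fold lower. Of 26 interferon-stimulated genes, 1 was at least 2-fold higher and 1 at least 2-fold lower with a median log2 ratio of 0.09. Genes of alternative activation were split, with 5 of 15 at least 2-fold higher, Mrc1, Clec10a and Il4ra among them, and 6 at least 2-fold lower, Chil3 among them. Over all 7271 genes these shares were 3.81% and 4%. Retnla, often used for this state, had 1 UMI in the resident-type macrophages. Lysosomal genes were mostly within 2-fold: Ctsl and Ctsb, both cathepsins, were 2.16-fold (2.03 to 2.30) and 2.03-fold (1.95 to 2.12) higher, none of 23 was 2-fold lower, and 1 cell held 28.4% of the Ctsl UMIs.

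**Figure D4:**
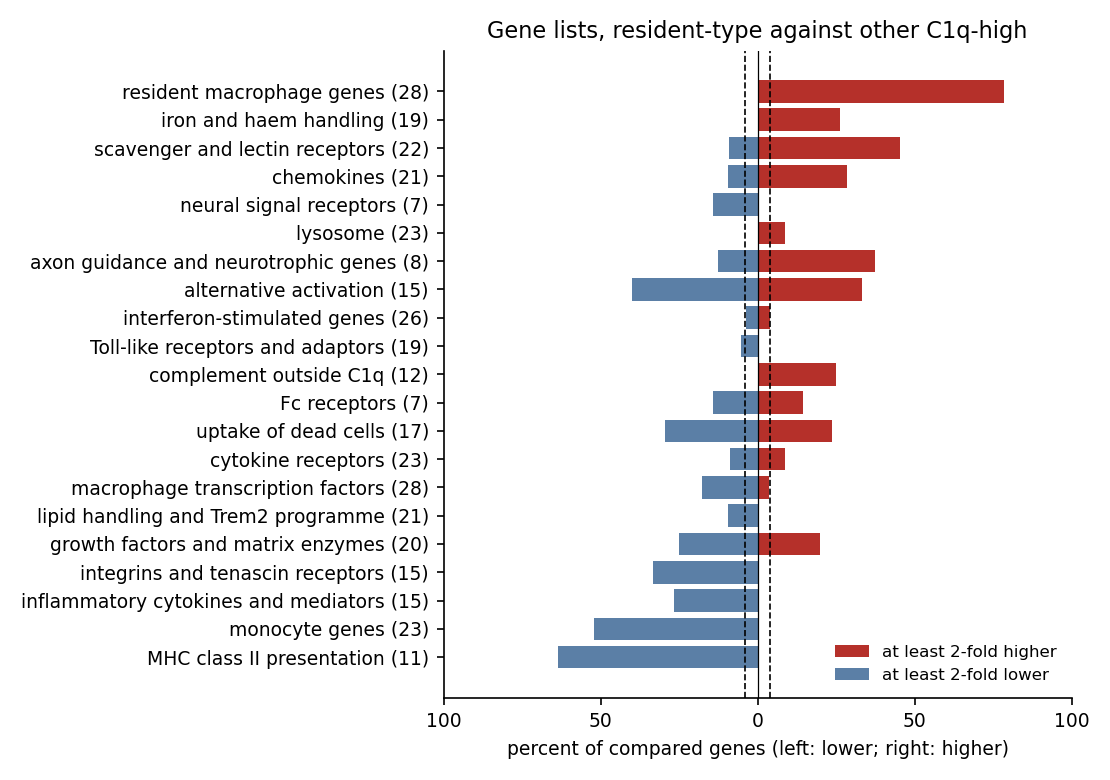
Gene lists with at least 6 compared genes are shown, without those of other cell types' markers and of dissociation genes. Bars give the percent of a list's compared genes (number in brackets) that were at least 2-fold higher (right) or lower (left) in CPM in resident-type than in other C1q-high macrophages. Dashed lines mark 3.81% and 4%, the shares over all 7271 genes. The list of resident macrophage genes reaches furthest right (22 of 28) and MHC class II presentation furthest left (7 of 11).

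Against the Ly6c2 monocytes, 628 of 5229 genes were at least 2-fold higher in the resident-type macrophages (12%) and 702 at least 2-fold lower (13.4%). Of 26 resident macrophage genes compared, 24 were at least 2-fold higher and none 2-fold lower, with a median log2 ratio of 3.85. The 6 highest ratios were those of Marco, Cd209f, Npl, Ccl8, Cd209b and Slc13a3, a carrier of dicarboxylates. Ccl8 was 70.5-fold higher (61.2 to 81.6), Npl had 397 against 6 UMIs (101-fold, 46.2 to 278) and Slc13a3 318 against 7 UMIs (69.7-fold, 33.4 to 175), 30.2% of them in 1 resident-type macrophage. Marco and Cd209f had 1 UMI each in the monocytes, which leaves intervals of 45.9 to 10298 and 34.3 to 7753 around their ratios. Of 24 monocyte genes 21 were at least 2-fold lower; Ly6c2 was used to choose these monocytes and is a description there. Prtn3, a protease stored in granules, had 2 against 262 UMIs (85.4 times lower, 23.4 to 709), and Chil3 168 against 7017 (27.2 times lower, 23.4 to 31.9). Slc7a11 had 8 against 510 UMIs (41.6 times lower, 20.9 to 96.8). Hopx, a homeodomain protein, and Cd177, a surface protein of neutrophils, had 1 and 2 UMIs in the resident-type macrophages and 102 and 96 in the monocytes. Of 15 inflammatory mediators 13 were at least 2-fold lower, while of 9 genes for class II presentation 2 were lower and 7 within 2-fold. Genes that respond to tissue dissociation stood the same way as the inflammatory ones, with 16 of 20 at least 2-fold lower and a median log2 ratio of -1.42; their part in the result was not tested. All 13 neutrophil markers compared were at least 2-fold lower than in these monocytes, which had 8484 CPM of S100a8 beside 1145 CPM in the resident-type macrophages and 5759 CPM in the collagen-high cells.

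Against the 50 Cd209a or Flt3 dendritic cells, 481 of 3589 genes were at least 2-fold higher (13.4%) and 363 at least 2-fold lower (10.1%). Cxcl13, a chemokine for B cells, had 989 UMIs against 2 (172-fold, 47.4 to 1419), in 44 of the 143 resident-type macrophages, 1 of which held 27.8% of them. Ccl8 and Ccl12 were 68.7-fold (51.4 to 93.9) and 61.6-fold (31.2 to 143) higher. Cd209f, Enpp1, which splits extracellular nucleotides, and Aoah, which detoxifies lipopolysaccharide, had 0 UMIs in the dendritic cells, so their ratios were at least 14.7, 13.7 and 9.83, with 3 UMIs over the group taken as the floor. Of 10 genes for class II presentation 9 were at least 2-fold lower, with a median log2 ratio of -4.37; H2-DMb2, a chaperone of class II loading, had 8 against 156 UMIs. Cd209a and Flt3, which chose the dendritic cells, had 8 and 1 UMIs in the resident-type macrophages. Cd7 and Klrk1, best known from T and NK cells, and Ffar2, a receptor for short-chain fatty acids, had 7, 4 and 5 UMIs against 261, 104 and 103. Whether the gate for dendritic cells also took in lymphocytes was not tested.

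Within the C1q-high macrophages several of these genes were graded with the sum of Cd163, Folr2, Lyve1 and Cbr2. The 783 cells were set in 4 groups, of 368 cells with 0 UMIs, 272 above 0 and under 5 per 10000, 77 from 5 to under 10, and 66 at 10 or more. Their median depths were 7471.5, 11076, 8448 and 10494 UMIs, and the part of depth was not tested. Ccl8 stood at 518, 1184, 5227 and 7113 CPM in that order. Ccl8 was ranked by its ratio across the limit of 5 per 10000, so a step there restates that choice. F13a1 stood at 93.2, 140, 371 and 855 CPM, and Gas6 at 24.6, 66.4, 196 and 323 CPM. The sum of Cd209b, d, f and g stood at 6.23, 31.2, 71.1 and 447 CPM, so its widest step was between the upper groups. For this sum 1 cell held 2 of 19 UMIs in the first group, 33 of 101 in the second, 14 of 52 in the third and 71 of 332 in the last. The Cd209 genes were also ranked by their ratios across the limit, so a step there restates that choice. Pf4 stood at 2510, 5394, 9054 and 8682 CPM and did not gain in the last group. Cxcl13 stood at 190, 751, 722 and 621 CPM, but 1 cell held 246 of its 580 UMIs in the first group, 1236 of 2431 in the second, 152 of 528 in the third and 275 of 461 in the last, so no order is read from it. The class II sum went down through 12215, 7330, 4160 and 1328 CPM. Cd72 stood at 321, 227, 38.3 and 33.7 CPM and Clec12a at 151, 136, 17.8 and 14.8 CPM. Both were ranked by their ratios across the limit, so their step there also restates the choice. C1qb lay between 2937 and 3652 CPM.

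**Figure D5:**
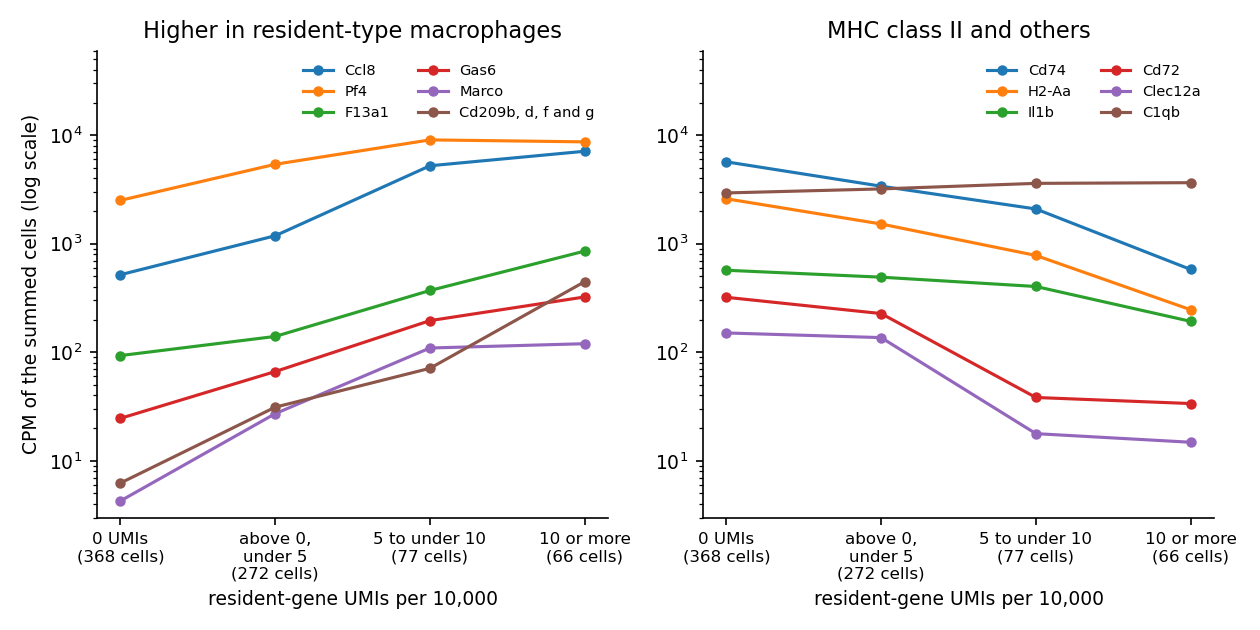
CPM on a log scale in 783 C1q-high cells, summed in 4 groups by their UMIs of Cd163, Folr2, Lyve1 and Cbr2 per 10,000 (x axis); the 2 groups on the right are the resident-type macrophages. Ccl8 climbs from 518 to 7113 CPM and the 4 Cd209 genes from 6.23 to 447 CPM (left), while Cd74 goes from 5682 to 579 CPM and C1qb stays between 2937 and 3652 CPM (right).

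The resident-type macrophages also varied among themselves. The 39 with a Lyve1 UMI were deeper than the 104 without (median 14244 against 8069 UMIs), so a share of cells would mislead and CPM are given. Lyve1 belongs to the sum with Cd163, Folr2 and Cbr2 that chose the cells, so the split also divides the cells by that sum. It stood at 1682 CPM in the cells with Lyve1 and 988 CPM in those without (1.70-fold, 1.55 to 1.87). The part of that sum in the differences below was not tested. In the cells with Lyve1 the class II sum was lower, 1063 against 3690 CPM (0.288-fold, 0.263 to 0.315). The 13 cells with the most class II UMIs, a sum of at least 100 per 10000, all had 0 Lyve1 UMIs, and without them, a choice made after seeing the data, the values were 1063 against 1856 CPM (0.573-fold, 0.519 to 0.631). Apoe, the lipoprotein of lipid-laden macrophages, was lower too, at 1132 against 3553 CPM (0.318-fold, 0.292 to 0.347). F13a1 was higher, 951 against 423 CPM (2.25-fold, 1.97 to 2.57), as were Npl (2.22-fold, 1.81 to 2.72) and Cd209f (175 against 35.2 CPM, 4.98-fold, 3.31 to 7.64), the last 3.03-fold (1.94 to 4.82) without its richest cell. Ccl8 was 1.60-fold higher (1.53 to 1.67), while C1qb, at 3621 against 3629 CPM, was near even. Marco was 1.12-fold (0.809 to 1.54) with all cells and 1.51-fold (1.07 to 2.13) without the cell that held 27 of its UMIs.

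Another 39 cells, only in part the same, held a UMI of Cd209b, Cd209d, Cd209f or Cd209g, and they were deeper, with a median of 12660 UMIs against 8573 in the other 104; the part of depth was not tested. In those 39, against the other 104, Cd163 was higher, 456 against 233 CPM (1.96-fold, 1.62 to 2.37), as were Marco (2.35-fold, 1.72 to 3.21) and Aqp1 (2.67-fold, 1.93 to 3.69). Single cells decided the values of Cxcl13 and Il1b: Cxcl13 was 1.89-fold (1.66 to 2.14) with all cells and 0.776-fold (0.652 to 0.921) without the cell that held 275 of its UMIs. Il1b was 2.06-fold (1.70 to 2.49) with all cells and 1.16-fold (0.917 to 1.45) without the cell that held 94. Folr2 was near even at 368 against 393 CPM. Apoe stood at 898 against 3473 CPM (0.259-fold, 0.233 to 0.287), and Ccl8 and Ccl12 were a little lower, at 0.824-fold (0.786 to 0.863) and 0.690-fold (0.609 to 0.781).

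The 13 resident-type macrophages with a class II sum of at least 100 per 10000 differed from the other 130 in more than these genes. Ccl8 had 20 UMIs in the 13 cells, 215 against 6580 CPM (0.0326-fold, 0.0199 to 0.0504), Cxcl13 had 2 UMIs and Marco 1. Chil3 was higher, 333 against 99.3 CPM (3.35-fold, 2.19 to 4.98), as were Ly6c2 (107 against 38.4 CPM, 2.80-fold, 1.27 to 5.55) and Apoe (5346 against 2491 CPM, 2.15-fold, 1.95 to 2.36). Their C1qa, C1qb and C1qc ratios to the rest were 0.935 (0.806 to 1.08), 1.16 (1.05 to 1.29) and 0.964 (0.827 to 1.12). Their median depth was 6965 UMIs. Over all 143 cells the resident sum and the class II sum had a Spearman rho of -0.26, the resident sum and the C1q sum 0.10, and the resident sum and the total UMIs 0.23; these describe cells of 1 library that share its depth and handling.

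Markers of other cell types were counted in the resident-type macrophages. Keratinocyte markers summed to 0.265 UMIs per 10000 over 13 genes, with Krt1, Krt15, Dsp and Trp63 at 0. Endothelial and lymphatic endothelial markers, of interest because Lyve1 also marks lymphatic vessels, summed to 0.753 per 10000 against 0.835 in other C1q-high macrophages, with Kdr, Tek, Flt4 and Reln at 0 and Ccl21a the most abundant at 51 UMIs. T and NK cell markers summed to 0.726, dendritic cell markers to 0.421 with Xcr1, Clec9a and Dpp4 at 0, and Langerhans cell markers to 0.299 per 10000. Fibroblast markers summed to 2.84 against 4.62 per 10000, led by Dcn with 151 UMIs. One shallow resident-type macrophage had 24 fibroblast-marker UMIs among 955, or 251 per 10000, near the 258 per 10000 of the collagen-high cells. Neutrophil markers summed to 26.5 against 44.5 per 10000, led by S100a8. Mast cell and basophil markers summed to 1.98 against 1.47 per 10000; Kit and Ms4a2 were at 0, and 1 resident-type macrophage held 62 of the 129 Cma1 UMIs and 27 of the 42 Cpa3 UMIs. Collagen-high cells carried some of the genes that were higher in resident-type macrophages, with 771 CPM of Timp2, 355 of Gas6, 233 of Igf1, 167 of Pmp22, 161 of Pros1, 134 of Aqp1 and 78.4 of Cpne8. The part of these transcripts in the differences above was not tested. A Ptprc UMI, the transcript of CD45, was found in 56.6% of resident-type (48.1 to 64.9%), 67.2% of other C1q-high (63.4 to 70.8%) and 26.0% of collagen-high cells (20.7 to 31.9%).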

How the data were processed

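The authors deposited, for dermis and for epidermis, 1 matrix each of raw UMI counts per gene and cell barcode; the matrix header names Cell Ranger 3.0.2, and the submitters' processing notes name CASAVA, Cell Ranger and the build mm10, with no order. The study's methods describe a sort that leaves out doublets and dead cells, and later filters (5% mitochondrial UMIs, a doublet caller) that the deposited counts do not carry. All 4721 dermal cells within the limits were used. Counts were summed over each group of cells and given as CPM; log2 ratios used a pseudocount of 0.5 UMI and were made for genes that reached 50 UMIs in the 2 groups together, and the genes of the rule were left out. The members, the groups and the gene lists were chosen with earlier results of these data known, and the groups of cells with at least 3 Cd3 UMIs and of collagen-high cells (Col1a1, Col1a2 and Col3a1 together at least 20 per 10000, at most 1 Cd3 UMI and C1q under 20) were set after the data were seen. With 1 library a tissue, cells are no replicates and no test was made; exact conditional intervals of a ratio and Clopper-Pearson intervals of a share cover counting error only, at 95%, and a count of 0 was set at 3 UMIs. Genes named are the 12 highest and 12 lowest ratios over other C1q-high macrophages, the 6 highest and 6 lowest over each other group, the 12 genes of at least 100 UMIs with the largest share in the members, and genes of the lists; mitochondrial, ribosomal, immunoglobulin, T cell receptor, Gm and Rik genes were left out of the first 3. No doublets were removed; as an alternative, the 178 cells with the highest scores of Scrublet (scanpy 1.11.5) were taken out, because its automatic threshold marked 2 of 4721 cells. Of 31053 gene identifiers, 30934 were matched to GENCODE M21. Promoter sequences are those of RefSeq for GRCm38.p6. Clec7a, Il36g, Ly6a2 and Mx2 were not analysed here, and some genes of the lists are counted but not reported singly here. Python 3.11.15, numpy 2.4.6, scipy 1.17.1, pandas 2.3.3 and biopython 1.88 were used. Only the step that makes the log2 ratios was tested on simulated counts.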

Additional observations from a re-analysis of the deposited data

Results flagged for a closer look

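Genes that chose the resident-type macrophages also had UMIs in the epidermal library, which the comparisons do not use. Cbr2 had 5341 UMIs over all epidermal barcodes, and of the 2944 in cells that passed the filters 2914 (99.0%) lay in 2855 keratin-rich cells, 1334 of which (46.7%) had at least 1. Lyve1 had 312 UMIs, and all 153 in cells that passed the filters lay in 121 keratin-rich cells (4.24%). Folr2 and Cd163 had 8 and 3 UMIs there. In the epidermis 2 of 3277 cells met the limits for resident-type macrophages, on 3 and 1 UMIs of the 4 genes, and their keratin sums were 53.6 and 110 per 10000. The libraries shared 45 barcodes, 2 of them of resident-type macrophages. In the dermis 17.8% of the Lyve1 UMIs lay in resident-type macrophages, against 49.2% for Cd163, 47.4% for Folr2 and 51.2% for Cbr2; which cells held the rest of the dermal Lyve1 was not tested.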

How the results depend on the processing

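No paired analysis was possible because dermis and epidermis were sequenced as 1 library each; the spread between mice is unknown. Under 17 other settings and 1 chosen after seeing the data (each gene without its richest cell in each group), no ratio past 2-fold among the ranked genes changed sign; the ratios of genes named only from lists were not recomputed. The 143 resident-type macrophages became 66 with a limit of 10 per 10000, 91 with Cbr2 left out of the sum and 81 with a Ptprc UMI required. The 277 genes higher and 291 lower than in other C1q-high macrophages became 430 and 463 with the limit of 10, 93 and 113 with cells thinned to 2000 UMIs (2753 genes compared in place of 7271), 538 and 528 at a minimum of 20 UMIs, and 147 and 187 at 100; a pseudocount of 5 UMIs left 119 lower. Against Ly6c2 monocytes 628 higher became 155 (thinned), 1197 (minimum 20) and 360 (minimum 100), and 702 lower became 260 (thinned). Against dendritic cells 481 higher became 138, 956 and 291, and 363 lower 69, 789 and 173, in that order. Of resident macrophage genes, 10 in place of 22 were 2-fold higher after thinning, and of monocyte genes 7 in place of 12 were lower with Cbr2 left out. The log2 ratio of Ccl8, 2.84, lay between 2.36 and 3.58. That of Marco, 2.83, lay between 2.29 and 4.71, that of Aqp1, 3.35, between 2.28 and 4.27, and that of Cd209g, 3.43, between 3.05 and 5.61, each highest with at least 2 UMIs of the 4 genes required of the resident-type macrophages and 0 of the comparison cells. Pparg went from -2.57 to -0.62 as a mean over cells, and a pseudocount of 5 UMIs moved Axl from -4.83 to -1.61 and Tmem119 from -4.06 to -2.12; these rest on 2, 0 and 1 UMIs. Taking out the 178 cells with the highest doublet scores removed 1 resident-type and 24 other C1q-high macrophages.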

Other observations

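Nrp1 and Nrp2, the neuropilins that bind semaphorins and vascular growth factors, stood at 91.6 CPM in resident-type and 28.2 CPM in other C1q-high macrophages (3.25-fold, 2.58 to 4.09) and at 50.9 against 22 CPM (2.32-fold, 1.73 to 3.09), and Sema4d, a semaphorin, at 6.11 against 18.3 CPM (0.334, 0.149 to 0.656). Of 8 axon guidance and neurotrophic genes 3 were at least 2-fold higher, Ednrb included, and 1 at least 2-fold lower. Over all 7271 genes these shares were 3.81% and 4%. Of 7 neural signal receptors compared none was 2-fold higher, 1 was 2-fold lower and 6 lay within 2-fold, with a median log2 ratio of 0.28. The lower one, Ramp1, a part of the receptor for the neuropeptide CGRP, had 15 UMIs in resident-type and 239 in other C1q-high macrophages, 10.2 against 38 CPM (0.268, 0.148 to 0.451), while the cells with Cd3 had 446 CPM.

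Of 15 integrins and tenascin receptors 5 were at least 2-fold lower, beside 4% of all 7271 genes, and none 2-fold higher. Their median log2 ratio was -0.54. Itgal, a chain of LFA-1, stood at 8.82 against 28.2 CPM (0.313, 0.164 to 0.550) and Itgb5 at 10.9 against 30.9 CPM (0.352, 0.197 to 0.586). The receptor chains for transforming growth factor beta went opposite ways, with Tgfbr2 at 92.3 against 40.1 CPM (2.30-fold, 1.86 to 2.85) and Tgfbr1 at 6.11 against 19.7 CPM (0.310, 0.138 to 0.607). Fcgrt, the neonatal Fc receptor that recycles antibodies and albumin, stood at 264 against 95.6 CPM (2.76-fold, 2.42 to 3.14), and Fcgr4, an activating Fc receptor, at 60.4 against 133 CPM (0.455, 0.362 to 0.567). Trem2, a lipid receptor of macrophages, was near even at 194 against 176 CPM (1.10-fold, 0.966 to 1.26). Of 20 genes known to respond to tissue dissociation, 1 was at least 2-fold lower and none 2-fold higher; Fos stood at 433 against 717 CPM.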
